A study of Mus musculus with 17 samples.

Results

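Mouse embryonic stem cells (ESC) were compared with mouse bone marrow cells (TO_BMC_0) over every probe that was detected on the array of either cell type. ESC are pluripotent cells that divide quickly and grow as tight epithelial colonies, and bone marrow is the tissue in which blood cells are formed from stem cells through progenitors of the myeloid, lymphoid, erythroid and megakaryocyte lineages. A probe counted as detected where its detection p-value, which sets its brightness against negative control beads, was below 0.01. Of the 25697 probes on the array, 12753 were detected on either of these arrays: 8879 on both, 2049 on the ESC array only and 1825 on the TO_BMC_0 array only. The probes with a gene symbol numbered 12016 and stood for 8816 genes.

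The series holds 17 Illumina BeadArrays of labelled cRNA made from total RNA, 1 per condition, and its title asks what Oct4 does early in reprogramming. The ESC array is labelled untreated, with no line, strain or passage given. TO_BMC_0 is the 0 h array of bone marrow cells that carry Oct4 under tetracycline control, and its label nonetheless gives the sample as treated. The same cells were also measured at 6, 12 and 24 h. The labels used here give no genotype beyond this, no inducing agent, no age, no strain, no culture or sorting of the marrow cells, and no wild-type bone marrow sample. Cell type, transgene and treatment therefore cannot be told apart in this comparison. With 1 array for each cell type there is no replicate spread, and no test, SD or p-value is given for any difference.

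All levels below are log2 normalized intensities, and each difference is the ESC value minus the TO_BMC_0 value on that scale. Where a probe was not detected on one array, its value there was raised to the dimmest detected signal of that array (5.43 for ESC and 5.51 for TO_BMC_0) unless its own was higher, and the fold is a lower bound, written as at least. A gene was read from its detected probe with the highest mean over both arrays. A difference was counted where it was 2-fold or more, and 4-fold served as a larger step. The 400 probes just inside the detection limit, with p from 0.005 to 0.01, had a median level of 5.53 on the brighter array, and the 199 just outside it, with p from 0.01 to 0.015, one of 5.43.

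The 2 cell types differed over a large share of what was measured. At least 2-fold higher in ESC were 3342 probes (26.2 percent) and at least 2-fold lower 2873 (22.5 percent). Past 4-fold, 1282 probes (10.1 percent) were higher and 1453 (11.4 percent) lower. Counted by gene, 25.8 percent of the 8816 genes were at least 2-fold higher and 23.7 percent at least 2-fold lower in ESC, with 10.2 percent past 4-fold higher and 12.2 percent past 4-fold lower, and the median over all genes was 0.07. These shares are the background for every list below. For scale, the same count made either way came to 48.7 percent of probes between ESC and TO_BMC_0. It was 0.507 percent between the 6 h and 0 h marrow arrays, 0.836 percent at 12 h and 1.9 percent at 24 h. Between the treated and untreated wild-type arrays it was 0.131 percent for fibroblasts and 1.46 percent for neural stem cells. In raw terms the arrays were alike, with a mean intensity of 597.4 and 10928 detected probes for ESC, against 583.6 and 10704 for TO_BMC_0.

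Across 39 gene lists on cell division, metabolism, adhesion, blood cells and cell identity, 438 genes were detected on either array of 556 with a probe and 627 listed. Genes of DNA replication, mitosis, nucleotide and serine synthesis, epithelial junctions, keratins and the basement membrane were higher in ESC. Genes of the lysosome, the oxidative burst, leukocyte adhesion, antigen presentation, leukocytes in general, neutrophils, macrophages and platelets were lower. The blood stem cell list (0 of 4 lower) had levels of 5.75 to 6.2 in TO_BMC_0, too near the ESC limit of 5.43 for a 2-fold drop. The T and NK list (0 of 5 lower) had a median level of 5.77 there, so its count says little. A gene detected on 1 array only can differ only towards that array, so counts in lists made up of such genes describe what was detected and carry no further weight. Glycolysis, the respiratory chain, cholesterol synthesis and fatty acid oxidation separated the 2 cell types far less.

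The labels were checked against marker genes. Of 27 detected pluripotency genes, 26 were at least 2-fold higher in ESC and 0 lower, with a median difference of 4.47. Of these, 22 were detected in ESC only and could not have been lower, and Prdm14 and Nr0b1 were below background on both arrays, so the count describes the label rather than testing it. Pou5f1, which encodes Oct4, had a level of 13.18 in ESC and 5.04 in TO_BMC_0, where it was not detected, a difference of at least 204-fold. At 6, 12 and 24 h the marrow arrays carried Pou5f1 up to 11.29. The TO_BMC_0 array thus held no detected Pou5f1 signal, although the sample is labelled treated.

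Esrrb and Nanog, transcription factors of the pluripotency network, were at least 226-fold and at least 102-fold higher in ESC. Dppa5a, an RNA-binding protein of early embryos, was at 14.81 in ESC and 4.56 in TO_BMC_0 (at least 632-fold). Dnmt3l, a partner of the de novo DNA methyltransferases, was detected on both arrays at 13.50 in ESC and 5.80 in TO_BMC_0 (208-fold), and Dnmt3b, one of those enzymes, at 12.92 in ESC and 6.77 in TO_BMC_0 (71.3-fold). The exception was Gdf3, a TGF-beta family ligand, at 10.58 in ESC and 9.87 in TO_BMC_0, a difference of 0.71.

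Marrow cells carried most pan-leukocyte and myeloid markers, while markers of blood stem cells and of red cells were mostly absent or dim. Of genes with a probe, TO_BMC_0 held 17 of 18 pan-leukocyte, 17 of 20 macrophage, 14 of 18 late granule and 8 of 9 primary granule genes. The rest, Cd48, Msr1, Marco, Adgre4, Mmp8, Wfdc21, Orm1, Padi4 and Cst7, were below background on both arrays. Of the stem and progenitor list, Cd34, Flt3, Procr and Hlf were below background on both arrays, and the 4 detected genes had levels of 5.75 (Tek) to 6.2 (Slamf1) in TO_BMC_0. Of the erythroid list, 10 of 12 genes with a probe, among them Alas2, Klf1, Epor and Slc4a1, were below background on both arrays. The marrow label was therefore borne out by myeloid genes and hardly by stem cell or red cell genes.

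Genes of other cells were detected on both sides, though only in part. Of the stroma list, Col1a2, Col3a1, Postn and Lum were below background on both arrays. So were Foxa2, Afp, Eomes, Mixl1, Gsc, Elf5, Hand1 and Fgf5 of the early differentiation list. Of 11 detected fibroblast and stroma genes, 6 were detected in ESC (range of levels 4.46 to 13.01) and 10 in TO_BMC_0 (5.42 to 11.99), and their summed raw intensity was 11288 in ESC and 10842 in TO_BMC_0, against 98510 in wild-type fibroblasts. Dcn, a matrix proteoglycan, was at 4.46 in ESC, not detected, and 10.46 in TO_BMC_0, and Col1a1, the main fibrillar collagen, at 5.03 in ESC, not detected, and 7.94 in TO_BMC_0. Acta2, smooth muscle actin, was at 13.01 in ESC and 11.99 in TO_BMC_0, and made up most of the ESC sum. The raw sums also hold the background of undetected genes, so their similar size does not show equal stromal signal. Of 7 detected early differentiation genes, all 7 were detected in ESC, with a summed raw intensity of 2937, and 2 in TO_BMC_0, with 6667, most of it Dab2 (10.06 in ESC and 12.46 in TO_BMC_0). Gata6 and Sox17, endoderm transcription factors, were at 8.47 and 7.12 in ESC and not detected in TO_BMC_0. The part of these cells in the differences below was not tested, and in such bulk RNA a smaller share of cells of a type cannot be told apart from less RNA per cell.

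Promoters of genes from some lists were searched for short motifs of factors known to act on such genes: the E2F site of S-phase genes, the CLEAR element of lysosomal genes and the PU.1 site of myeloid genes. The lists were DNA replication, mitosis, lysosome, monocyte and macrophage, pan-leukocyte and pluripotency. They were not simply those that differed most: the late neutrophil granule list, with a median of -5.64, was not searched. The windows run from 250 bases before to 50 bases after each RefSeq start (build GRCm38.p6), and both strands were read. The E2F letters TTTCCCGC or TTTGGCGC stood in 6 of 21 promoters of DNA replication genes (28.6 percent; 17 of the 20 genes matched by symbol), in 0 of 16 of mitosis genes and in 1.56 percent of all 32851 promoters. The PU.1 letters GAGGAAGT stood in 4 of 20 pan-leukocyte promoters (20 percent), in 3 of 15 lysosome promoters (also 20 percent), in 1 of 19 monocyte and macrophage promoters and in 3.2 percent of all. The CLEAR letters TCACGTGA stood in 2 of 15 lysosome promoters (13.3 percent) and in 0.974 percent of all, and the octamer ATTTGCAT of Oct4 in 1 of 22 pluripotency promoters, that of Zfp42, and in 1.74 percent of all. A match is a run of letters, not a measured binding site.

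The promoters below are shown as examples of genes past 2-fold that hold these letters, from replication licensing, higher in ESC, and from the leukocyte and lysosome lists, lower in ESC. Each is written from the 5′ end of the gene's own strand, with the motif in capitals (in the letters above or their reverse complement). Mcm7 is at chr5:138171834-138172133 on the minus strand and Mcm6 at chr1:128359656-128359955 on the minus strand, and both encode subunits of the helicase that opens DNA for replication. Vav1, a signalling protein of leukocytes, is at chr17:57278850-57279149 on the plus strand, and Cd37, a leukocyte tetraspanin, at chr7:45238790-45239089 on the minus strand. Ctsd, the lysosomal protease cathepsin D, is at chr7:142387778-142388077 on the minus strand.
Mcm7: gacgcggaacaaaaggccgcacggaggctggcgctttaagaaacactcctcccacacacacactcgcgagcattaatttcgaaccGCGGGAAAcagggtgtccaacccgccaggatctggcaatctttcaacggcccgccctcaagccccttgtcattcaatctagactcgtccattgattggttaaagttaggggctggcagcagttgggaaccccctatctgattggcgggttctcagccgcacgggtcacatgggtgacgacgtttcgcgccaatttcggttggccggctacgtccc
Mcm6: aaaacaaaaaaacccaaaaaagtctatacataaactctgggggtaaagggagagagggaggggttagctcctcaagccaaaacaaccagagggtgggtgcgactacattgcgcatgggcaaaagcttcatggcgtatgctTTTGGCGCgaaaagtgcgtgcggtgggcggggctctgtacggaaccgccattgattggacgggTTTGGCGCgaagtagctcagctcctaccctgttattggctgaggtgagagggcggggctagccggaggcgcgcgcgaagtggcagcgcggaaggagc
Vav1: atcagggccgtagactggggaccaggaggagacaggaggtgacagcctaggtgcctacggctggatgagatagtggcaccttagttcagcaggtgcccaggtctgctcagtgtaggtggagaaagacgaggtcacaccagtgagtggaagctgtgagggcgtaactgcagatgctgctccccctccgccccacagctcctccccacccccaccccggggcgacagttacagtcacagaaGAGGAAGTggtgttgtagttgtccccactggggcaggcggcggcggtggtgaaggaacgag
Cd37: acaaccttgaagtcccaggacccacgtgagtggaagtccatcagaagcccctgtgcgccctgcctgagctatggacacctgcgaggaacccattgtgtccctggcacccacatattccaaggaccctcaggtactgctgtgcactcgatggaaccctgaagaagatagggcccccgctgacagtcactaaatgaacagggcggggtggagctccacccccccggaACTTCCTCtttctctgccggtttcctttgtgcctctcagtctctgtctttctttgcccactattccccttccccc
Ctsd: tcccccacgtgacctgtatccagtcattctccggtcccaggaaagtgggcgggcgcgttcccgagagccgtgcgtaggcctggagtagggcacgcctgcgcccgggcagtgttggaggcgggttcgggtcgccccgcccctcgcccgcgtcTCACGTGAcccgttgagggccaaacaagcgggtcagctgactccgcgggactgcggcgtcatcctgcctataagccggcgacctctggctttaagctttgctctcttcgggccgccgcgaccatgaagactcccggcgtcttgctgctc
In Vav1 and Cd37 the PU.1 letters begin 11 and 25 bases before the start, and in the other 2 pan-leukocyte genes that hold them, Inpp5d and Cd53, 20 bases before and 6 bases after it.

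In cell division, the replication and mitosis genes differed in 1 direction, while regulators of G1 and brakes went both ways. A cell copies its DNA in S phase with enzymes and helicases that are switched on by E2F factors, and then divides through kinases and spindle proteins that peak at mitosis. Of 64 detected cell division genes, 43 were at least 2-fold higher in ESC and 6 lower, with 15 in between and a median of 2.08. The share of 67.2 percent higher stands against 25.8 percent of all genes.

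In all 36 genes of DNA replication and mitosis the ESC value was the higher one. DNA replication genes were at least 2-fold higher in 18 of 20 cases and lower in 0, with a median difference of 2.33. The helicase subunit Mcm7, whose promoter is shown above, was at 10.21 in ESC and 6.00 in TO_BMC_0 (18.4-fold). Mcm2 was at 11.87 in ESC and 9.18 in TO_BMC_0, and Mcm5 at 13.16 in ESC and 10.75 in TO_BMC_0. Mcm6, with 2 E2F runs in its promoter, was at 11.82 in ESC and 10.58 in TO_BMC_0 (2.36-fold), and 2 other detected probes of the gene gave differences of 0.32 and 1.01. The licensing loader Cdc6 differed by 2.79 and its partner Cdt1 by 1.01. Among enzymes that make DNA precursors, the ribonucleotide reductase subunit Rrm2 was at 9.98 in ESC and 6.88 in TO_BMC_0 (8.57-fold), and thymidylate synthase, Tyms, at 11.40 in ESC and 8.28 in TO_BMC_0, while a dimmer Tyms probe gave -0.46 as a bound. The 2 genes under the limit were Fen1, a flap nuclease, with 0.95, and Pcna, the sliding clamp, with 0.17.

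Mitosis genes were at least 4-fold higher in ESC in all 16 cases, with a median of 2.86. Cdc20, which activates the complex that lets chromosomes part, was at 12.50 in ESC and 8.40 in TO_BMC_0 (17.1-fold). The spindle kinase Aurka was at 11.32 in ESC and 7.46 in TO_BMC_0 (14.6-fold), and Cdk1, the kinase that drives entry into mitosis, at 12.24 in ESC and 8.72 in TO_BMC_0 (11.5-fold). The checkpoint gene Bub1b differed by 3.74 and the centromere histone Cenpa by 3.29. The smallest difference was that of separase, Espl1, with 2.06. A total of 14 of these genes were detected in the marrow cells too, so their signal was present there at a lower level. Ccnb2, Ccna2, Bub1, Ttk, Kif20a, Cenpe and Nek2 of the same list were below background on both arrays.

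The other cell types of the series help place these levels. The median level of the mitosis list was 11.32 in ESC, 7.78 in TO_BMC_0, 9.33 in wild-type fibroblasts and 10.47 in wild-type neural stem cells. Along the marrow arrays it was 7.78, 7.61, 8.02 and 8.54 at 0, 6, 12 and 24 h. For DNA replication the medians were 11.31 in ESC, 9.10 in TO_BMC_0, 9.17 in fibroblasts and 9.76 in neural stem cells. In mitosis genes the marrow array was the lowest of these 4 arrays, and in replication genes it was level with the wild-type fibroblasts. The 0 h array of fibroblasts with the transgene was not part of these medians. There, every replication gene but Pcna was higher than in wild-type fibroblasts, for example Mcm2 with 9.84 against 8.27.

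The G1 regulators, which decide whether a cell enters S phase, split by member: 6 of 12 were higher in ESC and 2 lower. Mybl2, a transcription factor that works with E2F and FoxM1 on cell cycle genes, was at 12.11 in ESC and 6.49 in TO_BMC_0 (49.3-fold), the largest measured difference of the cell division lists. Ccne1, the cyclin E that partners Cdk2, was at 9.98 in ESC and 6.5 in TO_BMC_0 (11.1-fold). The D-type cyclins, which link growth signals to G1, went both ways. Ccnd3 was 7.12-fold higher in ESC (13.21 in ESC and 10.38 in TO_BMC_0), Ccnd1 2.92-fold lower (11.07 in ESC and 12.62 in TO_BMC_0) and Ccnd2 3.74-fold lower (6.79 in ESC and 8.69 in TO_BMC_0). E2f1 differed by -0.03, and Myc was at 5.40 in ESC, not detected, and 5.51 in TO_BMC_0.

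Genes that slow the cycle showed no common direction, with 3 of 16 higher, 4 lower and a median of -0.08. Btg1, an antiproliferative factor of resting blood cells, was at 10.11 in ESC and 12.61 in TO_BMC_0 (5.66-fold lower), Rb1 at 7.49 in ESC and 9.20 in TO_BMC_0, and Cdkn2c at 5.02 in ESC, not detected, and 7.54 in TO_BMC_0. Higher in ESC were Cdkn2a (7.95 in ESC and 4.52 in TO_BMC_0, not detected there), Trp53inp1 with 1.94 and Cdkn1c with 1.19. Cdkn1a, the p53 target p21, differed by -0.97.

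Metabolism held differences in both directions. Of 132 detected genes, 36 were at least 2-fold higher in ESC, 36 lower and 60 in between, with a median of 0.42. The shares of 27.3 percent each way are near the 25.8 and 23.7 percent of all genes, so the program as a whole does not stand out and the lists within it are described separately.

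Building blocks for DNA and methyl groups were the part higher in ESC. Of 8 genes for serine, glycine and folate-bound carbon, 6 were higher and 0 lower, with a median of 2.96. Gldc, the glycine cleavage enzyme that feeds carbon into folate, was at 11.55 in ESC and 4.68 in TO_BMC_0, not detected there (at least 66.2-fold). Phgdh, the entry enzyme of serine synthesis, was at 9.50 in ESC and 5.98 in TO_BMC_0 (11.4-fold), and Mthfd1, a folate enzyme, at 11.28 in ESC and 8.23 in TO_BMC_0. The cytosolic Shmt1 was at least 14.6-fold higher in ESC, and the mitochondrial Shmt2 2.69-fold. Mthfd2 differed by 0.89.

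Of 11 genes of purine and pyrimidine synthesis, 9 were higher in ESC and 0 lower, with a median of 2.16. Umps, which completes uridine monophosphate, was at 11.17 in ESC and 7.80 in TO_BMC_0 (10.4-fold), and Ppat, the committing step of purine synthesis, at 9.94 in ESC and 6.63 in TO_BMC_0 (9.89-fold). Gart differed by 2.89, Prps1 by 2.90 and Ctps by 2.77. Of 4 detected polyamine genes, 2 were higher in ESC, 1 lower and 1 in between. Odc1, which makes putrescine, was at 13.48 in ESC and 10.53 in TO_BMC_0 (7.73-fold higher) and Srm, spermidine synthase, at 12.30 in ESC and 9.98 in TO_BMC_0. Sat1, which acetylates polyamines for export, was at 9.92 in ESC and 13.23 in TO_BMC_0 (9.87-fold lower).

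In glycolysis, 7 of 18 genes were higher in ESC and 3 lower, with a median of 0.70, and the uptake and first steps differed by isoform. The glucose transporter Slc2a3 was at 13.40 in ESC and 9.56 in TO_BMC_0 (14.3-fold), and Slc2a1 at 12.29 in ESC and 9.57 in TO_BMC_0 (6.59-fold). Hexokinase 2, Hk2, was at 12.68 in ESC and 10.97 in TO_BMC_0, whereas Hk3, the hexokinase of myeloid cells, was at 4.70 in ESC, not detected, and 12.38 in TO_BMC_0 (at least 123-fold lower). Pfkm, the muscle-type phosphofructokinase, was 8.14-fold higher. Downstream enzymes differed little: Gapdh by 0.60, Aldoa by 0.38 and Pkm by -0.56. Ldha, which makes lactate, was at 12.11 in ESC and 13.33 in TO_BMC_0. Tpi1 gave -1.09, but of its 2 other detected probes one gave -1.15 and the other 2.03, so its direction depends on the probe.

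Respiratory chain subunits were 2-fold or more higher in ESC in 6 of 22 genes and lower in 0, a share close to that of all genes, with a median of 0.66. Atp5o, a subunit of ATP synthase, differed by 2.19 and Cyc1, cytochrome c1, by 1.65, and the largest negative value was -0.34, for Sdhb of succinate dehydrogenase. Cholesterol synthesis had 2 of 13 genes higher and 1 lower, and fatty acid oxidation 1 of 8 each way. Hmgcs1, an early sterol enzyme, was at 13.35 in ESC and 12.77 in TO_BMC_0. Of 13 antioxidant enzymes, 1 was higher, Nqo1 (8.77 in ESC and 6.00 in TO_BMC_0), and 2 were lower, Cat and Hmox1. Hmox1, which breaks down haem, was at 8.82 in ESC and 11.93 in TO_BMC_0 (8.65-fold lower).

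The degradative and host defence side of metabolism was lower in ESC. Lysosome genes, which digest proteins, lipids and engulfed material, were at least 2-fold lower in all 15 cases, with a median of -3.46. Lipa, the acid lipase, was at 5.72 in ESC and 12.42 in TO_BMC_0 (104-fold lower). Cathepsin C, Ctsc, was at 7.17 in ESC and 12.19 in TO_BMC_0, and Ctsb at 11.15 in ESC and 14.69 in TO_BMC_0. Ctsd, whose promoter holds the CLEAR letters, was at 5.44 in ESC and 8.24 in TO_BMC_0 (6.94-fold lower). The membrane proteins Lamp1 and Cd63 were nearest to equal, with differences of -1.80 and -1.53. Of 15 lysosome genes 13 were detected in ESC. Wild-type fibroblasts had a list median of 11.18 and neural stem cells of 9.92, against 9.21 in ESC and 12.49 in TO_BMC_0.

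All 4 detected genes of the phagocyte NADPH oxidase, which makes superoxide to kill microbes, were lower in ESC. Of these, 3 were detected in TO_BMC_0 only and could not have been higher, and Cybb, another gene of the list, was below background on both arrays. Ncf4 was at 4.68 in ESC, not detected, and 12.21 in TO_BMC_0 (at least 110-fold), and Cyba at 9.65 in ESC and 14.35 in TO_BMC_0 (26.0-fold). Of 5 detected genes for lipid mediators made from arachidonate, 4 were lower, and 4 of the 5 were detected in TO_BMC_0 only. Alox5, Lta4h, Ptgs2, Pla2g4a and Alox15 of that list were below background on both arrays. Alox5ap, needed for leukotriene synthesis, was at 5.35 in ESC, not detected, and 13.45 in TO_BMC_0 (at least 260-fold). Of 11 haem and iron genes, 2 were higher in ESC, 5 lower and 4 in between, with a median of -0.47. The exporter Slc40a1 was at 7.05 in ESC and 13.30 in TO_BMC_0 (76.0-fold lower) and the phagosome transporter Slc11a1 at 11.04 in ESC and 14.10 in TO_BMC_0. The 2 genes higher in ESC were Urod and Alad of haem synthesis, by 2.19-fold and 2.07-fold.

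Adhesion divided by kind of contact. Of 62 detected genes, 33 were at least 2-fold higher in ESC and 21 lower, with 8 in between and a median of 1.17, and the 53.2 percent higher and 33.9 percent lower compare with 25.8 and 23.7 percent of all genes. Of these genes, 25 were detected only in ESC and 14 only in TO_BMC_0. Epithelial cells hold each other by cadherins and junctions and sit on a basement membrane, whereas leukocytes move singly and stick through integrins, selectin ligands and chemokine receptors.

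Cadherin and desmosome genes were higher in 6 of 8 cases and lower in 0. Cdh1, E-cadherin, was at 9.76 in ESC and 4.78 in TO_BMC_0, not detected there (a log2 bound of 4.25), and the desmosome gene Pkp2 at 9.55 in ESC and 5.35 in TO_BMC_0, not detected (at least 16.5-fold). Nectin2, an adherens junction protein, was at 10.53 in ESC and 7.62 in TO_BMC_0. The catenin Ctnnb1, which also carries Wnt signals, differed by 0.08. Of 8 tight and gap junction genes, 5 were higher and 0 lower, but 7 were detected in ESC only and could not have been lower. Cldn4 and Cldn6, claudins that seal epithelia, were at 11.28 and 10.41 in ESC (at least 54.7-fold and at least 29.9-fold higher). Gja1, connexin 43, was the gene of that list detected on both arrays, at 12.19 in ESC and 10.13 in TO_BMC_0.

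The 9 epithelial keratins and regulators that were detected at all were detected in ESC only, so they could differ in no other direction; a further one, Rab25, was below background on both arrays. In TO_BMC_0 their levels ran from 4.33 to 5.31, and each was at least 2-fold higher in ESC. Krt8 and Krt18, the paired keratins of simple epithelia, were at 12.13 and 10.45 in ESC (at least 98.7-fold and at least 30.8-fold). Esrp1, a splicing factor of epithelial cells, was at 7.80, the transcription factor Grhl2 at 6.67, and the membrane protease St14 at 8.64 with its inhibitor Spint1 at 8.23. In wild-type fibroblasts 2 of the 9 were detected and in neural stem cells 0.

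Basement membrane and matrix genes were higher in 10 of 11 cases, with a median of 2.14. Nid2, nidogen 2, was at 11.06 in ESC and 5.31 in TO_BMC_0, not detected there (at least 46.9-fold), and the laminin chain Lama1 at 10.46 in ESC and 4.96 in TO_BMC_0, not detected (at least 31.1-fold). Col18a1 was 9.17-fold and Col4a1 5.52-fold higher. The 1 gene that was lower, Tnc, tenascin C, was at 5.10 in ESC, not detected, and 9.26 in TO_BMC_0. Fibroblasts had a list median of 11.07, against 11.06 in ESC and 8.46 in TO_BMC_0, so in this list ESC were not the only cells with high levels.

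Integrins, the receptors for matrix and for other cells, went the other way in most cases, with 2 of 12 higher in ESC and 8 lower. Itga3 and Itgb4, each a chain of a laminin-binding integrin of epithelia, were at 9.80 and 8.20 in ESC and not detected in TO_BMC_0 (at least 19.6-fold and at least 6.48-fold). The leukocyte integrins Itgam and Itgb2 were at 6.96 and 7.54 in TO_BMC_0 and not detected in ESC. Itga2b, the platelet integrin, was at 5.04 in ESC, not detected, and 9.10 in TO_BMC_0. Itgb5, a vitronectin receptor chain, was at 8.04 in ESC and 10.90 in TO_BMC_0 (7.28-fold lower).

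Genes for leukocyte adhesion and migration were lower in 12 of 14 cases, with a median of -4.88. Of the 14, 10 were detected in TO_BMC_0 only and could not have been higher. Fpr2, a receptor for bacterial peptides, was at 4.43 in ESC, not detected, and 11.93 in TO_BMC_0 (at least 90.3-fold), and the selectin ligand Selplg at 4.60 in ESC, not detected, and 11.80 in TO_BMC_0 (at least 82.7-fold). Cxcr4, which holds blood cells in the marrow, was at 5.20 in ESC, not detected, and 10.61 in TO_BMC_0. Cd44, the hyaluronan receptor, gave at least 42.7-fold lower on its brightest probe, while 2 dimmer probes gave -0.83 and 0.04 as bounds. The exceptions were Pecam1, at 8.58 in ESC and 7.32 in TO_BMC_0 (2.40-fold higher), and Icam1, at 10.46 in ESC and 9.49 in TO_BMC_0.

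Blood genes gave the contrast with the fewest exceptions. Of 135 detected genes, 116 were at least 2-fold lower in ESC and 2 higher, with a median of -3.84, and 99 were at least 4-fold lower. The share of 85.9 percent lower stands against 23.7 percent of all genes. Of the 135 genes, however, 96 were detected only in TO_BMC_0 and could not have been higher in ESC, which holds within the single lists below too. The share therefore describes what was detected, and most sizes are lower bounds set by the ESC background. With detection on both arrays required, 29 blood genes were at least 2-fold lower and 1 higher.

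The pan-leukocyte list had 16 of 17 genes lower, with a median of -5.03. Fcer1g, a signalling chain of Fc receptors, was at 4.70 in ESC, not detected, and 14.15 in TO_BMC_0 (at least 422-fold), and Cd52 at 4.55 in ESC, not detected, and 13.37 in TO_BMC_0 (at least 246-fold). Coro1a, an actin regulator of leukocytes, was detected on both arrays, at 6.34 in ESC and 13.46 in TO_BMC_0 (139-fold lower). Vav1, with the PU.1 letters near its start, was at least 75.9-fold lower, and Cd37, which also holds them, differed by a bound of -4.10. The PU.1 gene itself, Spi1, was at 4.93 in ESC, not detected, and 10.73 in TO_BMC_0 (at least 39.3-fold lower).

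Of 17 blood transcription factors, 15 were lower and 0 higher. Lmo2, a cofactor of early blood formation, was at 5.43 in ESC, right at the detection limit, and 12.57 in TO_BMC_0 (140-fold). Irf5, a factor of macrophage activation, was at 4.91 in ESC, not detected, and 11.57 in TO_BMC_0 (at least 70.7-fold). Cebpa, which drives granulocyte formation, was at 4.61 in ESC, not detected, and 9.32 in TO_BMC_0. Meis1 and Zfpm1 differed by 0.41 and 0.92, under the limit.

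Monocyte and macrophage genes were lower in all 17 cases, with a median of -6.39, but 14 were detected in TO_BMC_0 only and could not have been higher. Gpnmb, a glycoprotein of lipid-laden macrophages, was at 5.41 in ESC, not detected, and 14.81 in TO_BMC_0 (at least 666-fold). The complement genes C1qb and C1qc were at 14.00 and 14.02 in TO_BMC_0 and not detected in ESC (at least 381-fold and at least 386-fold). Adgre1, the macrophage marker F4/80, was at 4.43 in ESC, not detected, and 12.39 in TO_BMC_0. Apoe and Lgals3, which other cells also make, were both detected in ESC, Apoe at 10.53 in ESC and 14.72 in TO_BMC_0, and Lgals3 at 10.75 in ESC and 14.46 in TO_BMC_0.

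Neutrophil genes came in 2 groups that mark steps of maturation. Late granule genes were lower in all 14 cases, with a median of -5.64, but 13 were detected in TO_BMC_0 only and could not have been higher. S100a8, a calcium-binding protein of neutrophils and monocytes, was at 4.43 in ESC, not detected, and 14.54 in TO_BMC_0 (at least 555-fold), Lyz2 at 4.74 in ESC and 14.73 in TO_BMC_0 (at least 630-fold) and lactoferrin, Ltf, at 4.55 in ESC and 12.42 in TO_BMC_0 (at least 127-fold). Lyz2 has a close paralogue, Lyz1, whose probe gave at least 722-fold, and cross-hybridization between them was not tested. Primary granule genes, made by promyelocytes, were lower in 7 of 8 cases, and 7 of the 8 were detected in TO_BMC_0 only. Mpo, myeloperoxidase, was at 4.51 in ESC, not detected, and 11.72 in TO_BMC_0 (at least 78.5-fold), and the neutrophil elastase Elane at 4.82 in ESC and 10.31 in TO_BMC_0.

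These groups did not hold equally over the marrow arrays. The primary granule list had medians of 8.48, 8.08, 7.48 and 5.26 at 0, 6, 12 and 24 h, with 8, 8, 7 and 1 of its 8 genes detected, against 4.64 and 1 in ESC. The late granule medians were 11.07, 10.56, 9.75 and 8.83 at the same times, against 4.50 in ESC. The macrophage medians were 12.39, 12.33, 12.33 and 12.75, against 4.60. The primary granule genes thus came close to the ESC level by 24 h, and the macrophage genes did not.

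Antigen presentation was lower as a whole. All 9 detected genes of the MHC class II and dendritic list were lower, with a median of -4.49. MHC class II molecules show fragments of engulfed antigen to T cells. The dendritic cell genes Siglech, Xcr1 and Zbtb46 of that list were below background on both arrays. H2-Ab1 was at 5.54 in ESC and 13.11 in TO_BMC_0 (190-fold), and the invariant chain Cd74 at 6.07 in ESC and 13.58 in TO_BMC_0 (183-fold). H2-Eb1 was at 8.26 in ESC and 10.98 in TO_BMC_0, the smallest measured difference of that list. The 10 genes of MHC class I presentation, which most cells of the body use to show their own peptides, were lower as well, with a median of -4.11. B2m, the light chain, was at 10.19 in ESC and 14.58 in TO_BMC_0 (20.9-fold), and the immunoproteasome subunit Psmb9 at 5.90 in ESC and 11.10 in TO_BMC_0 (36.7-fold). The class I list had medians of 5.31 in ESC and 10.03 in TO_BMC_0, and of 5.85 in fibroblasts and 5.17 in neural stem cells.

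Platelet and megakaryocyte genes were lower in 7 of 8 cases, and 7 of the 8 were detected in TO_BMC_0 only. Pf4, platelet factor 4, was at 4.38 in ESC, not detected, and 11.53 in TO_BMC_0 (at least 68.6-fold). Of 6 mast cell, basophil and eosinophil genes 5 were lower, and 5 of the 6 were detected in TO_BMC_0 only. Among those lower was Prg2, the eosinophil major basic protein, at 4.50 in ESC, not detected, and 10.39 in TO_BMC_0. Tpsb2, Tpsab1, Cma1, Ms4a2, Epx and Il5ra of the same list were below background on both arrays. B cell genes were lower in 4 of 7 cases, and 5 of the 7 were detected in TO_BMC_0 only. The largest difference was that of Blnk, at 4.68 in ESC, not detected, and 8.84 in TO_BMC_0. The B cell genes Ms4a1, Vpreb3, Pax5, Rag1 and Rag2 were below background on both arrays. T and NK genes gave 1 higher of 5 and 0 lower, and blood stem cell genes 0 of 4 either way. Cd3g, Cd8a, Il2rb, Klrb1c, Klrd1, Gzma, Gzmb and Ncr1 of the T and NK list were below background on both arrays. The detected blood stem cell genes were too dim in TO_BMC_0 to be counted as lower. Cytokine and innate receptors were lower in all 11 cases, with Ifngr1, the interferon gamma receptor, at 5.57 in ESC and 10.72 in TO_BMC_0 (35.7-fold), and Tlr4, which senses bacterial lipopolysaccharide, at 4.57 in ESC, not detected, and 10.25 in TO_BMC_0.

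Some blood genes were detected in ESC. Laptm5, a lysosomal protein of leukocytes, was at 13.11 in ESC and 14.79 in TO_BMC_0 (3.21-fold lower). Inpp5d, a lipid phosphatase of blood cell signalling, was at 8.21 in ESC and 10.27 in TO_BMC_0, and the phosphatase Ptpn6 at 7.93 in ESC and 12.74 in TO_BMC_0. The 2 genes that were higher in ESC were Prf1, perforin of cytotoxic cells, at 8.90 in ESC and 7.37 in TO_BMC_0, and Car2, carbonic anhydrase of red cells and other tissues, at 7.43 in ESC and 4.71 in TO_BMC_0, not detected. The cell-defining genes Ptprc, Tyrobp, Lyz2 and Adgre1 were at 4.43 to 4.74 in ESC, not detected.

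The probes that differed most were also ranked without regard to lists, among those with a gene symbol. Of probes measured on both arrays, the 15 highest in ESC lay mostly outside the division and adhesion lists and included Dnmt3l with 2 probes, Mreg, a melanosome regulator, at 12.36 in ESC and 5.56 in TO_BMC_0 (111-fold), Klf5 (75.6-fold), the RNA-binding genes Rbpms2 (74.7-fold) and Igf2bp3 (49.2-fold), the tubulin Tubb2b (71.6-fold) and the small heat shock protein Hspb1 (62.9-fold). The 15 lowest with a symbol held H2-Ab1 with 3 probes, Cd74 and Coro1a with 2 each, and outside the lists Ms4a6d, at 6.38 in ESC and 13.73 in TO_BMC_0 (163-fold), and the syndecan Sdc3 (156-fold). Of the 15 brightest probes detected only in ESC, those outside the lists were Bex4 (at least 150-fold), Ooep (at least 144-fold), Tex19.1 (at least 136-fold), Wfdc2 (at least 129-fold) and Rhox5 (at least 104-fold). The brightest of those detected only in TO_BMC_0 was Lyz1, and Lgals3bp (at least 498-fold), Trem2, a lipid receptor of macrophages (at least 323-fold), and the interferon-induced Ifit3 (at least 263-fold) were also among them.

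Probes of one gene mostly gave one direction. Of the 333 list genes past 2-fold, 98 had another detected probe, and 149 of those 153 probes had the same sign. The genes with a probe of opposite sign were Tyms, Tpi1 and Cd44, given above, and a probe of Mcm6 near background gave no difference.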

How the data were processed

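Total RNA was labelled as cRNA and hybridized to Illumina BeadArrays. Of the deposited values, the authors' bead intensity table is linear and not normalized, with a detection p-value beside each intensity, and their second table is on the log2 scale. BeadStudio 3.2, RMA and lumi are named in the submitters' processing notes, without settings. The deposited ESC log2 column has a median of 3.77, and those of ESC and TO_BMC_0 rank probes as the intensity does. How the log2 table was made is not given in the sources used here. That table served as an alternative.

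For the main values, limma 3.58.1 (R 4.3.3) was run on the intensities: normexp background correction by neqc, with control beads inferred from the detection column, then quantile normalization over 17 arrays, with 16 as the offset. The steps were tested on simulated data. Symbols came from the platform annotation, which pairs 23978 of 25697 probes with 1 symbol and 1719 with none. All array columns were assigned (0 left out). Each group has 1 array, so no test was run, and the number of arrays limits the precision. The members and lists were chosen with earlier results of these data known. Named were genes of the lists, the 15 probes most different each way among those detected on both arrays, the 15 brightest detected on 1 array only, each side, and Pou5f1. Promoters came from RefSeq. Alternatives were an offset of 50, no background correction, the authors' log2 values, median scaling, normalization of the 2 arrays alone, a detection limit of 0.05, detection on both arrays, and each later TO_BMC array in place of TO_BMC_0.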

Additional observations from a re-analysis of the deposited data

How the results depend on the processing

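No paired analysis was possible because each group has 1 array. The counts at 2-fold were 3342 probes higher and 2873 lower in ESC; they were 2841 and 2480 with an offset of 50, 2308 and 2078 without background correction, and 3714 and 3197 in the authors' log2 values. Keeping only probes detected on both arrays left 1844 lower probes, adhesion genes at 13 higher and 7 lower (33 and 21 as reported), and blood genes at 1 higher and 29 lower (2 and 116), since it drops every gene with a side at background. Blood genes higher in ESC numbered 1 without background correction, 4 against the 6 h and 5 against the 24 h marrow array. Of 366 named differences past 2-fold, 329 (no background correction) to 366 (the authors' values, 2 arrays alone, detection below 0.05) remained past it the same way under the processing alternatives, with 350 for an offset of 50; with detection on both arrays required, 183 had a value and all 183 remained. Against the marrow arrays at 6, 12 and 24 h it was 353 of 365, 350 of 364 and 326 of 352. Signs turned for Hdc (0.50 at 12 h and 1.22 at 24 h), Alox12 (0.38 at 24 h), Gata2 (0.45 at 24 h) and the mast cell list median (0.55 at 24 h); the cause was not tested. The spread used to compare single values was that of the 4 marrow arrays, which differ in time. Folds against a side at background depend on that floor and are bounds only. Measured folds with 1 side barely above the floor, such as those of Lmo2, H2-Ab1, Ctsd and Mreg, depend on it as well.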

Other observations

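Other gene groups were drawn up after the values had been seen and are given as descriptions. Of 14 detected germline and maternal genes, 11 were at least 2-fold higher in ESC and 0 lower, with a median difference of 3.41, but 13 of the 14 were detected in ESC only and could not have been lower. Zscan4c, a marker of the rare ESC state that resembles the early embryo, was at 11.88 in ESC and 4.59 in TO_BMC_0, not detected there (at least 82.8-fold). Dazl, an RNA-binding protein of germ cells, was at 10.65 in ESC and 4.63, not detected (at least 35.5-fold), and Taf7l, a germ cell transcription factor subunit, at 10.16 in ESC and 4.34 in TO_BMC_0 (at least 25.2-fold). Ddx4, the germ cell helicase, was at 5.59 in ESC, near background.

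Interferon-stimulated genes, which cells use against viruses, were lower in ESC in 17 of 18 cases, with a median of -3.53. Of the 18, 9 were detected in TO_BMC_0 only and could not have been higher. Ifit3 was at 4.8 in ESC, not detected, and 13.47 in TO_BMC_0, Irf7, a factor that amplifies the response, at 4.37 in ESC, not detected, and 11.96 in TO_BMC_0 (at least 92.2-fold), and Rsad2 at 4.70 in ESC, not detected, and 11.85 in TO_BMC_0 (at least 85.6-fold). Irgm1, a GTPase of this group, was at 12.94 in ESC and 12.63 in TO_BMC_0. Of 16 ribosome biogenesis genes, 14 were higher in ESC and 0 lower, with a median of 1.93. Rrp1b was at 11.64 in ESC and 8.39 in TO_BMC_0 (9.48-fold), and the nucleolar protein Npm1 at 14.50 in ESC and 12.56 in TO_BMC_0 (3.84-fold). Of 12 splicing and RNA-binding genes, 11 were higher and 0 lower, with Snrpn at 11.72 in ESC and 4.51 in TO_BMC_0, not detected there (at least 74.4-fold), and Srsf3 at 9.42 in ESC and 6.86 in TO_BMC_0 (5.90-fold).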
